A study of Mus musculus with 18 samples.

Results

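Transcripts of 7 genes of the Notch pathway were followed in mouse embryonic stem cells (mESCs) with and without Zeb2, a zinc-finger transcription factor of early neural development, during neural differentiation (ND). The genes were the receptors Notch1 and Notch3, the Delta-like ligands Dll1 and Dll3, and the Hes family members Hes1, Hes5 and Hes6, which were chosen by their symbols among the 10965 genes of the deposited expression table. The 18 RNA-seq libraries formed 6 groups of 3, Zeb2 -/- cells (Zeb2 KO) and Zeb2 fl/fl control cells (Ctrl) on d0, d4 and d6, all of the labelled strain CD1. On d0 the cells were naive mESCs in medium with LIF and inhibitors of Mek and Gsk3 (2i + LIF). They were then grown as embryoid bodies (EBs) in serum medium with 15% FBS until d4, when the medium became serum-free N2B27 with 500 nM retinoic acid, in which the d6 EBs were harvested. Ctrl lines came from flox/flox blastocysts, and KO lines were made from them by transient expression of Cre. The methods describe the libraries of a stage as independent experiments. Several lines were established and the labels do not say which of them were sequenced, so p-values measure the spread between these experiments and not between lines.

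In Notch signaling, a Delta-like or Jagged ligand on a cell binds a Notch receptor on its neighbor, and cleavage of the receptor by an Adam protease and then by gamma-secretase frees its intracellular domain. That domain joins the DNA-binding protein Rbpj and coactivators of the Mastermind family in the nucleus and switches on repressors of the Hes and Hey families, of which Hes1 and Hes5 keep neural progenitors undifferentiated by repressing proneural genes. Dll1 activates Notch on neighboring cells, Dll3 acts mainly inside the cell that makes it and is no classical activator, and Hes6 counteracts Hes1 and promotes neuronal differentiation.

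Zeb2 KO EBs had little Dll1 and hardly any Hes5, whereas Hes6 was at several times its Ctrl level. Dll1 was 2.53 ± 0.92 TPM in KO and 15.8 ± 3.1 TPM in Ctrl on d4 (mean ± SD, n = 3), where TPM are read counts scaled by gene length and library total. Hes5 on d6 was 0.734 ± 0.361 TPM in KO and 11.7 ± 4.5 TPM in Ctrl. Hes6 on d6 was 94.8 TPM in KO and 20.1 TPM in Ctrl, and the KO libraries lay within 1 TPM of each other. Dll3 did not pass the test between genotypes on any day, and Notch1 passed it on d0 alone.

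Promoter sequences are shown for the genes whose levels differed most between genotypes, as 300 bases running from 250 before to 50 after an annotated transcript start (RefSeq, GRCm38.p6), written 5′ to 3′ on the strand of the gene. Capitals mark 2 motifs searched on both strands, GTGGGAA, the core bound by Rbpj, and CACCT, the core bound by Zeb proteins, with the reverse complement in capitals where the match is on the other strand. The windows are Hes5 at chr4:154960673-154960972 (plus strand), Hes6 at chr1:91413989-91414288 and at the later start chr1:91413173-91413472 (minus strand), and Dll1 at chr17:15376883-15377182 (minus strand).
Hes5: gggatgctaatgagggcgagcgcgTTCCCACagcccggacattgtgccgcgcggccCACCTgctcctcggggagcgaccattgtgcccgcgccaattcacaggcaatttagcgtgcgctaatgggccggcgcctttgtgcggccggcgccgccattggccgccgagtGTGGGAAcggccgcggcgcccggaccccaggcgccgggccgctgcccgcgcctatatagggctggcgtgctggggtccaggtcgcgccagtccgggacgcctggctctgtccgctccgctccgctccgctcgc
Hes6, first start: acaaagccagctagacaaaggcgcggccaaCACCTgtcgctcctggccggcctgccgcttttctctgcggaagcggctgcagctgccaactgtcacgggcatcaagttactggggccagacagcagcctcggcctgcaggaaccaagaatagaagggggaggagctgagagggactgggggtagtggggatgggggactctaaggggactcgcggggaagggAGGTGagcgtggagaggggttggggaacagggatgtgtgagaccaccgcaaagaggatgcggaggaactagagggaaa
Hes6, later start: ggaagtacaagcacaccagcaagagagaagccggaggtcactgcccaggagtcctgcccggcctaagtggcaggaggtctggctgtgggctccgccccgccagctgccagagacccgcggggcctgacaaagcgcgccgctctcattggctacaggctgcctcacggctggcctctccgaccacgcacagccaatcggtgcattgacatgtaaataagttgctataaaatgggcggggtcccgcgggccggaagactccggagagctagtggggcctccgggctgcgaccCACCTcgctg
Dll1: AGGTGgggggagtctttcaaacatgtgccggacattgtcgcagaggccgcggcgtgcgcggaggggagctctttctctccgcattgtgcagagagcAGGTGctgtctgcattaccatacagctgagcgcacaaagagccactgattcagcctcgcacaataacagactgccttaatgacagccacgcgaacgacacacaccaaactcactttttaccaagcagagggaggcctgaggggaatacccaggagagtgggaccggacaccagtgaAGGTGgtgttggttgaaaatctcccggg

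Hes5 had 2 matches to GTGGGAA, starting 226 bases before the transcript start on the opposite strand and 83 bases before it on the strand of the gene. No such match was found in the other 7 windows available for Notch1, Notch3, Dll1, Dll3 and Hes6. GTGGGAA occurred in 6.38% of 32851 promoter windows of this length, so that the Hes5 window stood among a minority. CACCT was found in the windows of Dll3, Hes5 and Hes6 and in 1 of 2 windows of Dll1 and not in those of Notch1 and Notch3, but 51.9% of all windows hold it. The longer CACCTG, which contains CACCT, occurred in 20.2% of all windows and was present in Hes5, in the first-start window of Hes6, in the Dll1 window shown and in Dll3. A match of letters is a description and not a bound site, and its absence speaks only of these windows.

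**Figure D1:**
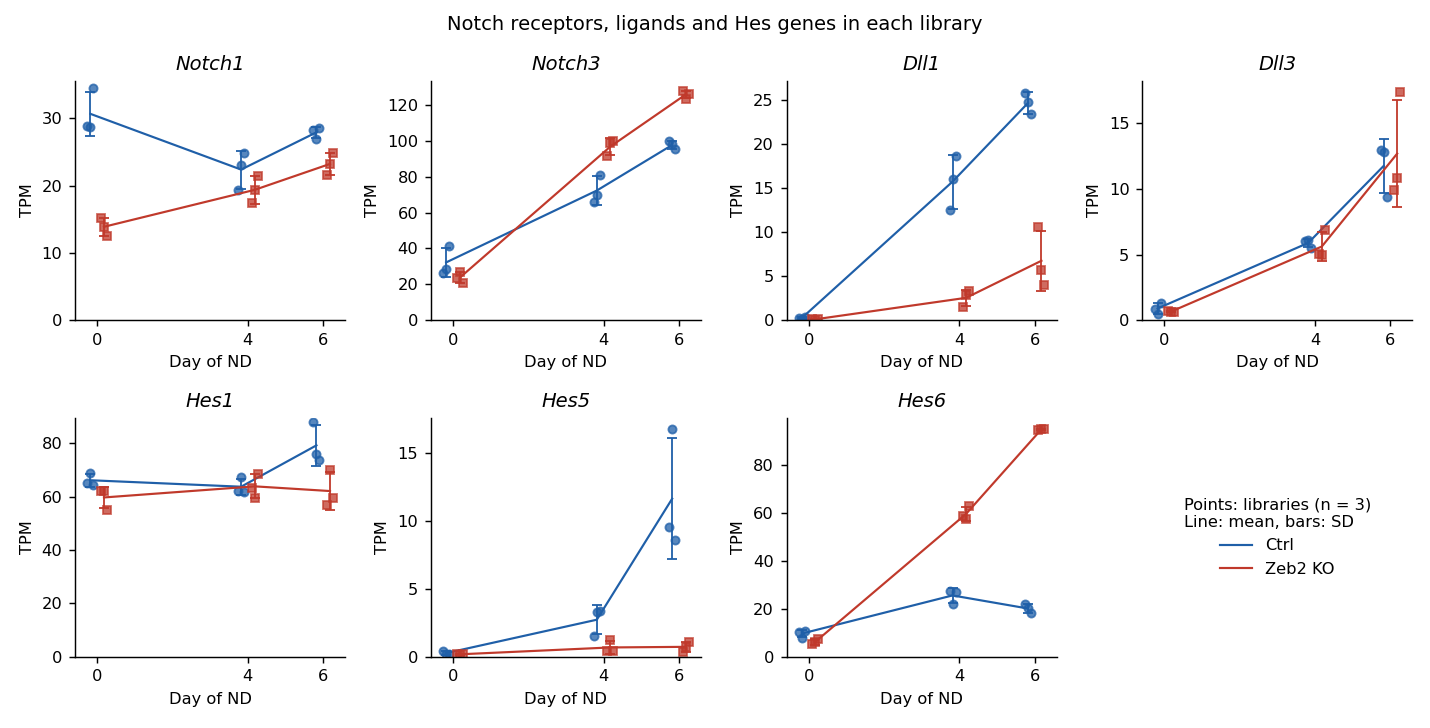
TPM of each gene (vertical axes, starting at 0) against day of ND (horizontal axes), with 1 point per library, Ctrl in blue circles and Zeb2 KO in red squares, lines through the means and bars of 1 SD (n = 3). Dll1 climbs in both genotypes and is lower in KO on d4 and d6, Hes5 climbs in Ctrl and stays near 0 in KO, Hes6 climbs to about 95 TPM in KO, and the Dll3 points of the genotypes overlap on every day.

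Genotypes were compared with limma on log2(TPM + 1), and a call required p below 0.01 after Benjamini-Hochberg adjustment across the 10965 genes. Differences are KO minus Ctrl on that scale, which understates the change of genes with low TPM. The libraries held 9622622 to 15617675 reads on these genes. Zeb2 itself, as the check of the labels, was at a mean of 0.681 TPM in KO and 7.66 TPM in Ctrl on d6, and of 0.0216 and 0.129 TPM on d0. The median difference over all genes was -0.07 on d0, -0.16 on d4 and -0.14 on d6, and small differences are read against it. On d0, 2 of the 7 genes were lower in KO and 0 higher, when 27.0% of all genes were called, 16.4% lower and 10.6% higher. On d4, 2 were lower and 1 higher, against 32.7% lower and 12.7% higher among 45.5% called. On d6, 3 were lower, Dll1 and Hes5 among them, and 1 higher, against 34.3% lower and 17.9% higher among 52.3% called. Dll1 and Hes5 entered the table through Ctrl libraries alone, so a higher Ctrl level was part of their selection. Calls were common in this experiment, so the counts alone do not set these genes apart and their sizes and directions are described gene by gene.

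Notch1 (chr2:26457903-26516663, minus strand, GRCm38), the receptor that mediates most Notch signaling in early neural tissue, was lower in naive KO cells. On d0 it was at 28.8, 28.7 and 34.4 TPM for Ctrl versus 15.2, 13.8 and 12.6 TPM for KO. All Ctrl libraries lay above all KO libraries, and the difference was -1.09 ± 0.11 (SE, adjusted p = 1.7e-06). By d4 the Ctrl libraries were at 19.3, 23.0 and 24.9 TPM and the KO libraries at 17.4, 19.3 and 21.4 TPM, which overlapped. On d6 Notch1 was at 28.2, 27.0 and 28.6 TPM for Ctrl versus 21.6, 23.2 and 24.9 TPM for KO. The d6 groups did not overlap, but the difference of -0.26 (95% interval -0.49 to -0.03) missed the threshold with an adjusted p of 0.0487. Between d0 and d4 Notch1 fell by 0.44 in Ctrl (adjusted p = 0.0016) and rose by 0.45 in KO (adjusted p = 0.00155), and the difference between these changes was 0.89 ± 0.15 (adjusted p = 0.000192). The rise in KO lost its call under 6 of 27 other settings, among them both rescalings of the libraries, and the fall in Ctrl lost its call without Ctrl d0 replicate 3 (adjusted p = 0.0117) or without Ctrl d4 replicate 1 (adjusted p = 0.0124).

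Notch3 (chr17:32120820-32166852, minus strand), a receptor also found in neural progenitors, rose with ND in both genotypes. Its level was 26.4, 28.8 and 41.4 TPM for Ctrl versus 23.5, 26.8 and 20.6 TPM for KO on d0. On d4 it reached 66.1, 69.7 and 81.3 TPM for Ctrl versus 91.6, 99.0 and 100.2 TPM for KO. On d6 it reached 99.8, 98.2 and 95.4 TPM for Ctrl versus 127.9, 123.7 and 126.4 TPM for KO. The genotypes overlapped on d0, whereas every KO library lay above every Ctrl library on d4 and d6. The differences were -0.41 on d0 (adjusted p = 0.0175), 0.42 on d4 (adjusted p = 0.0102) and 0.36 on d6 (adjusted p = 0.021), all just outside the threshold with an SE of 0.13. Leaving out a library moved the d0 difference between -0.54 and -0.22, and it was called without Ctrl d0 replicate 1 (adjusted p = 0.0046). After median-ratio rescaling, which removed the overall shift, Notch3 was called higher in KO on d4 (0.59, adjusted p = 0.00068) and on d6 (0.52, adjusted p = 0.0014). Its rise from d0 to d4 was 1.16 in Ctrl and 2.00 in KO, and the difference between these changes was 0.83 ± 0.18 (adjusted p = 0.00129). From d4 to d6 it rose by 0.43 in Ctrl (adjusted p = 0.00856), a call lost under 13 of 27 other settings, and by a similar 0.38 in KO that was not called (adjusted p = 0.0208).

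The balance of the receptors, as the ratio of Notch3 TPM to Notch1 TPM within a library, moved toward Notch3 in both genotypes. It was 1.04 ± 0.15 on d0, 3.24 ± 0.20 on d4 and 3.51 ± 0.16 on d6 in Ctrl (SD, n = 3). In KO it was 1.71 ± 0.21, 5.02 ± 0.31 and 5.44 ± 0.43 on the same days. Each KO library had a higher ratio than each Ctrl library of its day.

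Dll1 (chr17:15367354-15376872, minus strand), the main activating ligand of early neural and presomitic tissue, was nearly silent in naive cells of both genotypes. On d0 its counts were 6, 2 and 6 reads in Ctrl and 2, 0 and 1 reads in KO, and no fold change is given at that depth. On d4 Dll1 was at 12.6, 16.0 and 18.7 TPM for Ctrl versus 1.504, 2.82 and 3.28 TPM for KO, backed by 29 to 66 reads per KO library. On d6 it was at 25.8, 24.9 and 23.4 TPM for Ctrl versus 10.5, 5.71 and 4.01 TPM for KO. The groups did not overlap on d4 or d6, and the KO libraries of d6 spread more widely than those of Ctrl. Of its 8 libraries with at least 5 TPM 6 were Ctrl, so the Ctrl libraries alone carried Dll1 into the table. A higher level in Ctrl was thus part of its selection. Its differences, -2.26 ± 0.25 on d4 and -1.82 ± 0.25 on d6, are given as a description. Dll1 rose from d0 to d4 by 3.75 in Ctrl and by 1.66 in KO. The difference in change of -2.09 ± 0.35 rests on the same Ctrl libraries. With voom on recovered reads, where the few d0 reads weigh on a relative scale, that difference in change was -0.61 (adjusted p = 0.738), so a genotype difference in relative induction was not detectable at this depth. From d4 to d6 Dll1 rose in KO by 1.08 (adjusted p = 0.00173), and this call was lost without KO d4 replicate 1 (0.85, adjusted p = 0.0121) and with only the groups compared (adjusted p = 0.0355). Over the same step the Ctrl change of 0.63 was not called (adjusted p = 0.041).

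Dll3 (chr7:28293553-28302238, minus strand) rose with ND in both genotypes. Ctrl libraries were at 0.866, 0.481 and 1.30 TPM on d0, at 6.00, 6.13 and 5.53 TPM on d4 and at 12.998, 12.845 and 9.40 TPM on d6. KO libraries were at 0.720, 0.632 and 0.595 TPM on d0, at 5.05, 4.92 and 6.85 TPM on d4 and at 9.90, 10.8 and 17.4 TPM on d6. The genotypes overlapped on each day, and the highest value of all was that of KO d6 replicate 3. The difference was -0.17 on d0 (95% interval -0.60 to 0.26), -0.07 on d4 (-0.50 to 0.36) and 0.08 on d6 (-0.35 to 0.50), with adjusted p of 0.549, 0.784 and 0.764. Dll3 rose by 1.89 in Ctrl and 1.99 in KO from d0 to d4, and by 0.88 and 1.02 from d4 to d6, each with an adjusted p of 0.00154 or less. The ligands thus stood in a different ratio in the genotypes, since Dll3 TPM over Dll1 TPM was 0.385 ± 0.091 in Ctrl and 2.40 ± 0.85 in KO on d4, and 0.474 ± 0.063 and 2.39 ± 1.75 on d6 (SD, n = 3). The d6 ratios of KO were 0.939, 1.89 and 4.33, and without replicate 3 their mean was 1.42.

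**Figure D2:**
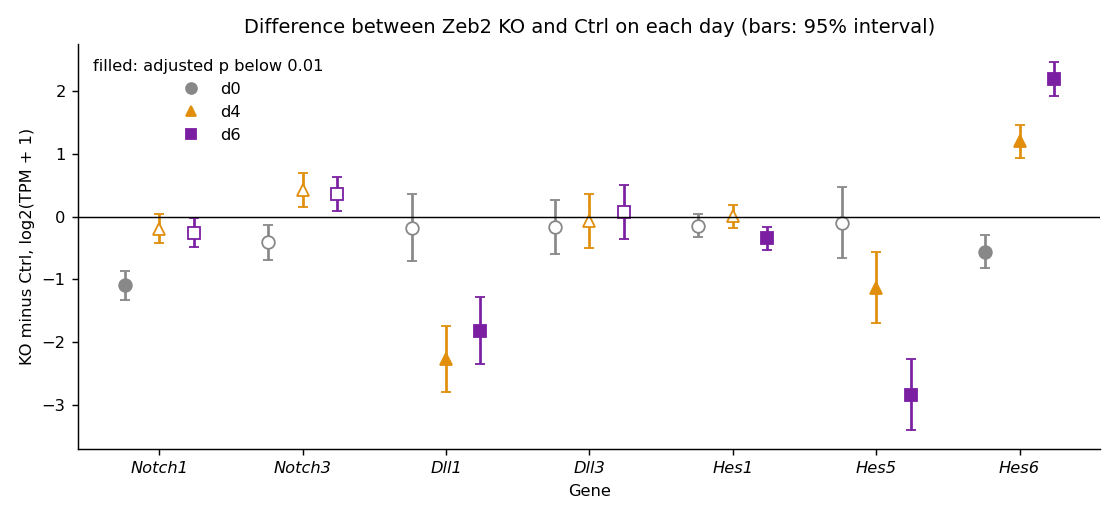
Difference between Zeb2 KO and Ctrl on the log2(TPM + 1) scale (vertical axis) for each gene (horizontal axis) on d0, d4 and d6, with 95% intervals of the limma fit and filled symbols where the adjusted p is below 0.01. Dll1 and Hes5 lie below 0 on d4 and d6, Hes6 passes from -0.56 on d0 to 2.18 on d6, and the Dll3 intervals include 0 on all days.

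Hes1 (chr16:30064384-30067796, plus strand), a repressor that is expressed in mESCs as well as in neural progenitors, stayed between 55.0 and 87.9 TPM in all 18 libraries. In Ctrl it was at 65.2, 69.0 and 64.3 TPM on d0, at 62.2, 67.2 and 61.8 TPM on d4 and at 87.9, 76.1 and 73.7 TPM on d6. In KO it was at 62.2, 62.0 and 55.0 TPM on d0, at 63.4, 59.6 and 68.6 TPM on d4 and at 56.7, 70.0 and 59.6 TPM on d6. The groups overlapped on d4, and on d0 and d6 every Ctrl library was above every KO library, although the d0 difference of -0.15 was not called (adjusted p = 0.195). From d0 to d4 Hes1 in Ctrl moved by -0.05 without a call, and it was called lower after median-ratio rescaling (-0.35, adjusted p = 0.0017) and with voom (-0.36, adjusted p = 0.001). Hes1 rose by 0.31 in Ctrl from d4 to d6 (adjusted p = 0.00637) and was lower in KO on d6, with a difference of -0.35 ± 0.09 (adjusted p = 0.00218). The d6 difference shrank to -0.19 after median-ratio rescaling (adjusted p = 0.0732) and to -0.18 with voom (adjusted p = 0.0947), and was lost without Ctrl d6 replicate 1 (adjusted p = 0.016), KO d6 replicate 1 (0.0127) or KO d6 replicate 3 (0.0102). The rise in Ctrl was lost without any of 4 libraries, Ctrl d4 replicates 1 and 3 and Ctrl d6 replicates 1 and 2, with adjusted p from 0.0108 to 0.0422.

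Hes5 (chr4:154960923-154962371, plus strand), a Notch-dependent repressor of neural progenitors, was switched on in Ctrl and stayed near the detection limit in KO. The Ctrl libraries held 2, 0 and 0 Hes5 reads on d0, 9, 19 and 20 reads on d4 and 41, 98 and 47 reads on d6. The KO libraries held 0, 0 and 0 reads on d0, 1, 6 and 1 reads on d4 and 1, 3 and 5 reads on d6. In TPM, Ctrl d4 was at 1.51, 3.29 and 3.40 and KO d4 at 0.415, 1.22 and 0.431, and Ctrl d6 was at 9.60, 16.8 and 8.59 and KO d6 at 0.388, 0.706 and 1.11. The groups did not overlap on d4 or d6. Because the authors kept genes with at least 5 TPM in 3 or more libraries, Hes5 is in the table only through its 3 Ctrl d6 libraries, so a higher level there than elsewhere was a condition of its being in the table at all. The d6 difference of -2.83 ± 0.27 is therefore given as a description. On d4 the difference was -1.13 ± 0.27, also a description, because the table holds Hes5 through Ctrl libraries alone. Its call in the main fit was lost in 7 of 26 settings. In 3 of them a library was left out, Ctrl d4 replicate 2 (adjusted p = 0.0107), Ctrl d4 replicate 3 (0.0115) or KO d4 replicate 1 (0.0101). Hes5 rose in Ctrl by 1.52 from d0 to d4 and by 1.75 from d4 to d6, and its changes in KO of 0.48 and 0.05 were not called. The difference between the changes from d4 to d6 rests on the same Ctrl d6 libraries. It was -1.70 ± 0.38 and is likewise given as a description. Its call in the main fit was lost with voom (-2.02, adjusted p = 0.128), without KO d4 replicate 2 (adjusted p = 0.0111) and without KO d6 replicate 1 (adjusted p = 0.0101).

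Hes6 (chr1:91411483-91414038, minus strand), the antagonist of Hes1, went the other way. It was at 10.5, 7.89 and 10.6 TPM for Ctrl versus 5.24, 6.05 and 7.5 TPM for KO on d0. On d4 it was at 27.6, 22.1 and 27.0 TPM for Ctrl versus 58.6, 57.2 and 62.8 TPM for KO. On d6 it was at 21.9, 20.2 and 18.3 TPM for Ctrl versus 94.5, 95.1 and 94.8 TPM for KO. The genotypes did not overlap on any day, with KO lower on d0 and higher on d4 and d6. The difference was 1.19 ± 0.12 on d4 (adjusted p = 9.4e-07) and 2.18 ± 0.12 on d6 (adjusted p = 3.76e-10), and these calls held in all 27 other settings. The d0 difference of -0.56 ± 0.12 (adjusted p = 0.00211) was lost without Ctrl d0 replicate 1 (adjusted p = 0.0117), Ctrl d0 replicate 3 (0.0133) or KO d0 replicate 1 (0.0137). From d0 to d4 Hes6 rose by 1.32 in Ctrl and by 3.07 in KO, and the difference between these changes was 1.75 ± 0.18 (adjusted p = 1.11e-06). From d4 to d6 it rose further in KO by 0.66 (adjusted p = 0.000305), whereas the Ctrl change of -0.33 was not called (adjusted p = 0.0338), and these changes differed by 0.99 ± 0.18 (adjusted p = 0.000632).

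Hes6 overtook Hes1 in KO on d6 when their TPM were compared within a library. The ratio of Hes6 TPM to Hes1 TPM was 0.147 ± 0.028 on d0, 0.403 ± 0.064 on d4 and 0.254 ± 0.010 on d6 in Ctrl (SD, n = 3). In KO it was 0.106 ± 0.027, 0.933 ± 0.024 and 1.54 ± 0.16. Each KO library exceeded each Ctrl library on d4 and d6, and the genotypes overlapped on d0.

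**Figure D3:**
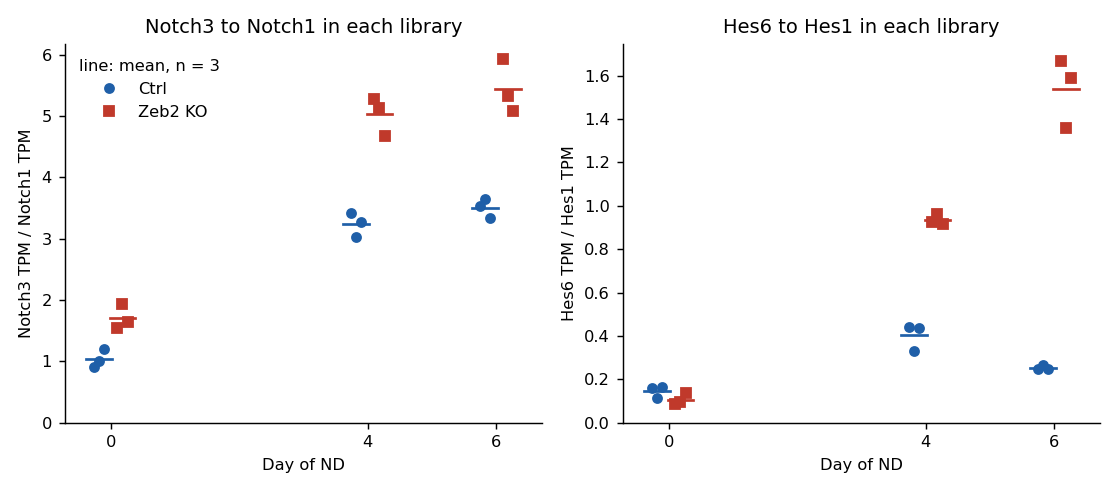
Ratio of Notch3 to Notch1 TPM and of Hes6 to Hes1 TPM within each library (vertical axes, starting at 0) against day of ND, with points for libraries, lines for means (n = 3), Ctrl in blue and Zeb2 KO in red. The Notch3 to Notch1 ratio climbs in both genotypes and is higher in KO on each day, and the Hes6 to Hes1 ratio reaches 1.54 in KO on d6 against 0.254 in Ctrl.

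Counted over the course of ND, 5 of the 7 genes rose and 1 fell from d0 to d4 in Ctrl, where 67.4% of all genes were called, 45.1% higher and 22.3% lower. In KO 5 rose and 0 fell over that step, where 56.7% were called, 35.8% higher and 20.9% lower. From d4 to d6, 4 rose and 0 fell in Ctrl, where 44.1% were called, 22.6% higher and 21.5% lower, and 3 rose and 0 fell in KO, where 41.4% were called, 21.5% higher and 19.9% lower. The change from d0 to d4 differed between genotypes for 4 of the 7 genes, 3 higher and 1 lower in KO, where 36.1% of all genes were called, 13.6% higher and 22.5% lower. The change from d4 to d6 differed for 2, Hes6 higher and Hes5 lower, where 13.4% were called, 7.1% higher and 6.29% lower. Dll1 and Hes5 entered the table through Ctrl libraries alone, so these counts describe them and do not test them. The comparisons of genotypes and of days use the same libraries and are not independent of each other.

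In order of level, measured in TPM, Hes1 led on d0 in both genotypes at 66.2 TPM in Ctrl and 59.7 TPM in KO, followed by Notch3 and Notch1. By d6 Notch3 led in both, at 97.8 TPM in Ctrl and 126.0 TPM in KO. The second place on d6 was taken by Hes1 in Ctrl, at 79.2 TPM, and by Hes6 in KO. Neighbors whose libraries overlapped in Ctrl were Notch3 and Notch1 on d0, Hes5 and Dll1 on d0, Notch3 and Hes1 on d4, Hes6 and Notch1 on d4, and Dll3 and Hes5 on d6. In KO these were Hes1 and Hes6 on d4 and Dll3 and Dll1 on d6. The order depends on the gene lengths behind the TPM values. For 3164 of 10922 genes found in GENCODE M21 that length equaled the sum of all distinct annotated exons, in which overlapping exons count repeatedly, and for 2041 it equaled the bases the exons cover. Among genes whose exon sum and covered bases differ, 1152 matched the sum and 29 the covered bases. For Hes6 the length behind TPM was 5116 bases, which matched neither the exon sum of 3781 bases nor the 1808 bases covered. For an order on the covered length, the TPM of each of the 7 genes was multiplied by the ratio of its length to the covered length. The libraries were not rescaled to a common total, so the products are not TPM and serve the order and the ratios only. Hes6 in KO d6 was then at 268 and led the order over Notch3 at 125. In Ctrl d6 Hes1 led at 111 over Notch3 at 97.2, and in Ctrl d4 Hes6 and Notch3 overlapped at 72.3 and 71.9. On that length, a choice made after seeing the data, the mean Hes6 to Hes1 ratio was 0.812 on d4 and 0.512 on d6 in Ctrl and 1.88 and 3.10 in KO, so that Hes6 passed Hes1 in KO on d4 already. Ratios between groups do not depend on the length.

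Of 74 other genes listed for the Notch pathway by role, 47 were in the table and the rest were not analysed here. On d0, 4 of the 47 were higher and 14 lower in KO with a median difference of -0.18, on d4 4 and 29 with a median of -0.43, and on d6 5 and 23 with a median of -0.36. The medians over all genes were -0.07, -0.16 and -0.14, and 10.6% of all genes were higher and 16.4% lower on d0, 12.7% and 32.7% on d4, and 17.9% and 34.3% on d6. Of the 47, 5 entered the table through Ctrl libraries alone, Dlk1, Lfng, Neurl1b, Hes3 and Hey1, with fewer than 3 KO libraries at 5 TPM. A higher level in Ctrl was thus part of their selection, and their values are given with no p. The lists were drawn up with earlier results of these data known, and the counts describe them only.

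Among the other receptors, Notch2 was lower in KO at 27.8 against 54.2 TPM on d4 (-0.94, adjusted p = 6.84e-07) and 38.7 against 60.7 TPM on d6 (-0.63, adjusted p = 2.41e-05). Of the other ligands, the Jagged genes were higher in KO on d4, Jag1 at 18.1 against 5.26 TPM (1.62, adjusted p = 1.72e-08) and Jag2 at 108 against 73.8 TPM (0.54, adjusted p = 0.00165). Jag2 was also higher on d6 (0.44, adjusted p = 0.00563), where Jag1 was not called at 10.8 against 12.9 TPM. Both Jagged genes had been lower in KO on d0, at -0.79 for Jag1 and -0.98 for Jag2. Dlk1, a noncanonical ligand without the usual activating domain, was at 0.783 TPM in KO and 10.3 TPM in Ctrl on d6 (-2.66). Low Dll1 and Dlk1 thus stood beside higher Jag1 and Jag2 on d4.

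Genes that modify and release receptors and ligands included lower ones in each role, with 32.7% of all genes lower on d4 and 34.3% on d6. Lfng, a fringe glycosyltransferase that tunes the response of Notch to its ligands, was at 3.9 TPM in KO and 35.6 TPM in Ctrl on d6 (-2.91). It entered the table through Ctrl libraries alone. Of 6 genes for Notch glycosylation, Lfng included, 3 were lower and 0 higher on each of the 3 days. On d0, 16.4% of all genes were lower and 10.6% higher. The lower genes besides Lfng on d6 were Pofut1, which adds fucose (-0.85), and Xxylt1, a xylosyltransferase (-0.44). Pofut1 was lower on d4 and d6 and not called on d0. Of 3 genes for ligand ubiquitination and uptake, 2 were lower on d4, Neurl1b (-0.91) and Neurl1a (-0.74), and 2 on d6, Neurl1b (-0.54) and Mib1 (-0.36). Of 5 genes for receptor cleavage, 4 were lower on d4 and 3 on d6. Adam10, which makes the first ligand-induced cut, was at 32.5 TPM in KO and 89.4 TPM in Ctrl on d6 (-1.43, adjusted p = 4.98e-11). The gamma-secretase subunit Ncstn was also lower on d6 (-0.71), and Furin, which processes the receptor before it reaches the surface, was lower on d4 alone (-0.68).

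In the nucleus, the DNA-binding factor Rbpj was higher in KO, at 13.6 against 9.39 TPM on d4 (0.50, adjusted p = 0.000451) and at 14.9 against 7.5 TPM on d6 (0.91, adjusted p = 6.84e-07). Of the 8 nuclear genes, Rbpj included, 1 was higher and 5 lower on d4, and 1 was higher and 4 lower on d6. Among all genes 12.7% were higher and 32.7% lower on d4, and 17.9% and 34.3% on d6. These shares are the background for every count by role below, and the small counts alone do not set a role apart. The coactivators lower on d6 included Maml1 at 21.6 against 48.3 TPM on d6 (-1.13, adjusted p = 2.59e-08) and Maml3 at 6.6 against 21.5 TPM (-1.56, adjusted p = 1.5e-08), and the acetyltransferase Crebbp (-0.61). Not called on d6 were Ep300 at 63.6 against 67.1 TPM, Kat2a at 103 against 95.7 TPM and Kat2b at 16.4 against 14.9 TPM. Of 10 corepressor genes, 5 were lower and 0 higher on d4, and 5 were lower and 1 higher on d6. Ctbp1 (-0.88) and its relative Ctbp2 (0.80) were called in opposite directions on d6, and the Groucho-family gene Tle6 was lower on d4 (-1.92), as was the demethylase gene Kdm5a (-0.36). Among 8 genes that restrain or modulate Notch, Dtx1 was higher in KO at 20.8 against 4.72 TPM on d6 (1.93, adjusted p = 3.76e-10), while Dtx4 was at 13.1 against 113 TPM (-3.02, adjusted p = 4.82e-12). Dtx2 was lower on both days, and Dtx3l was lower on d4 (-1.92) and higher on d6 (0.36). The directions in this group were mixed, with 1 higher and 6 lower on d4 and 2 of each on d6.

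**Figure D4:**
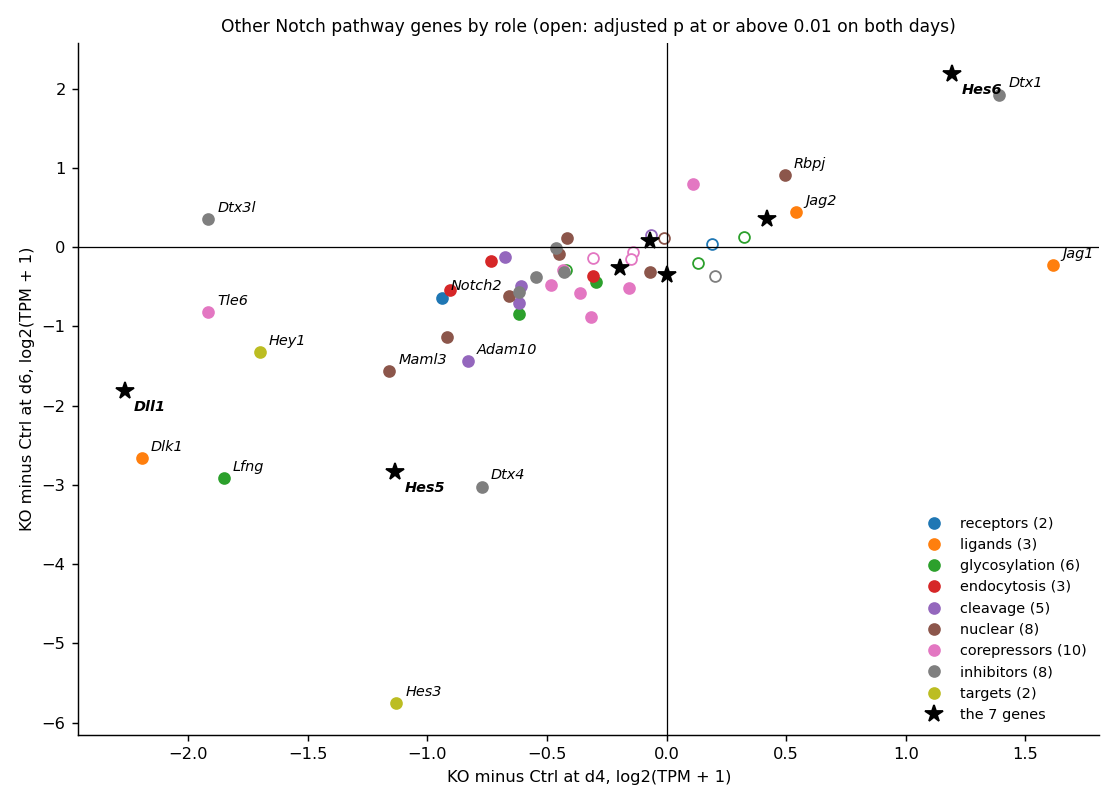
KO minus Ctrl difference on the log2(TPM + 1) scale at d4 (horizontal axis) and d6 (vertical axis) for 47 other Notch pathway genes colored by role, with the number of genes per role in the key, open circles for genes called on neither day and black stars for the 7 genes. Most pathway genes lie to the lower left, Hes3, Dtx4, Lfng and Dlk1 are the lowest of them on d6, and Hes6 and Dtx1 lie at the upper right.

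Of 7 other Hes and Hey family genes listed, 2 were in the table, Hes3 and Hey1. Both were lower in KO on d4 and d6, where 32.7% and 34.3% of all genes were lower. Hes3 and Hey1 entered the table through Ctrl libraries alone, so a higher Ctrl level was part of their selection. Hes3, a repressor of early neural progenitors, was at 0.331 TPM in KO and 70.9 TPM in Ctrl on d6 (-5.76). Like Hes5 it entered the table through its Ctrl d6 libraries alone. The KO d6 libraries held 1, 0 and 2 Hes3 reads, so that value is near the floor set by the 1 read added to each gene. Hey1, a repressor related to the Hes proteins, was at 3.03 against 12.1 TPM on d4 (-1.70) and 2.7 against 8.12 TPM on d6 (-1.33). Of 5 proneural genes, which Hes repressors act on, 4 were lower in KO on d6, and none of them was higher. Among all genes 34.3% were lower and 17.9% higher on that day. Neurog1 was at 0.793 against 30.8 TPM (-4.13) and Neurod4 at 0.0898 against 8.62 TPM (-3.14). Both entered the table through Ctrl libraries alone, Neurog1 through those of d4 and d6 and Neurod4 through those of d6. Neurod4 had 0 reads in each KO d6 library, so its KO value shows only the 1 read added to each gene. Neurod1 differed from Neurog1 and Neurod4, higher in KO on d4 at 18.9 against 9.26 TPM (0.96, adjusted p = 8.97e-05) and not called on d6. Among the Id genes, whose products block proneural factors, Id2 (-1.39) and Id3 (-2.23) were lower and Id4 (0.79) was higher in KO on d6.

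Marker sums of the cells in the EBs differed between genotypes for some cell types and overlapped for others. The summed TPM of 5 neuron markers was 228 to 244 in Ctrl and 236 to 267 in KO on d4, and 221 to 253 against 87.6 to 107 on d6. Of these, Elavl3 was called higher in KO on both days, Stmn2 was higher and Dcx lower on d4, and Dcx, Map2 and Tubb3 were lower on d6. In naive cells on d0 the neuron marker sum was already 264 to 294 in Ctrl and 146 to 170 in KO. It does not stand for neurons alone. The summed TPM of 5 neural progenitor markers was 377 to 477 in Ctrl and 98.2 to 134 in KO on d6, and 200 to 255 against 124 to 148 on d4. On d4 Irx3 and Pax6 were called lower in KO, Nes was called higher and 2 were not called. The sum of 6 pluripotency markers was 321 to 373 in Ctrl and 1028 to 1246 in KO on d6. Among them Pou5f1, Nanog, Zfp42 and Esrrb were called higher in KO, Klf4 was called lower and 1 was not called. Of 8 paraxial mesoderm markers, the tissue in which Dll1 is also strongly expressed, 2 were in the table, with a sum of 189 to 232 TPM in Ctrl and 3.4 to 6.38 TPM in KO on d4. That sum was nearly all Meox1, a gene of early somites, at 208 TPM in Ctrl and 0.917 TPM in KO, whereas Tcf15 was at 3.42 and 4.26 TPM. The sum of 3 endothelial markers, where Dll and Hey genes are also used, was 25.8 to 31.4 TPM in Ctrl and 24.9 to 27.4 TPM in KO on d4. Of these, Pecam1 was called higher and Tie1 lower in KO on d4 and d6, and 1 was not called. In naive cells on d0 the endothelial sum was already 47.2 to 49.5 TPM in Ctrl and 43.8 to 48.3 TPM in KO. It does not stand for endothelium alone. The part of these cells in the Dll1, Hes5 and Hes6 results was not tested. In bulk libraries fewer cells of a type and less RNA per cell cannot be told apart.

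The profiles fell into distinct shapes over the 18 libraries, described by Pearson's r on log2(TPM + 1) among libraries that share genotypes and days. Notch3 ran closest to Dll3 (r = 0.95) and Hes6 (0.89), and Dll1 ran about equally close to Dll3 (0.84) and Hes5 (0.84). Between Hes5 and Hes6 r was 0.08, and between Hes1 and Hes6 it was -0.05. The genes most like each over all genes with at least 5 TPM in some group were Tmem109, BC049730 and Plekho2 for Notch1 (r from 0.896 to 0.901), and Arhgdig, Limd2 and Gng2 for Notch3 (0.984 to 0.988). They were Sec63, Zmynd11 and Megf6 for Dll1 (0.987 to 0.990), and Ajuba, Khk and Arl4c for Dll3 (0.982 to 0.987). Hes1 had the least similar companions, Dexi, Pou3f3 and Tysnd1 (0.814 to 0.843). Hes5 was closest to P3h2, Ptn and Foxd2os (0.970 to 0.971) and Hes6 to genes that included Mnd1-ps (0.976) and Dmrtc2 (0.974). Ptn, which encodes a growth factor of neural tissue, showed the shape seen for Hes5, at 46.9 TPM in Ctrl d6 and 2.00 TPM in KO d6. Mnd1-ps is a processed pseudogene whose reads may be shared with its parent gene and is uncertain.

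Transcripts of opposite strand overlap Notch1, Notch3, Dll1 and Hes5 in GENCODE M21, and whether reads were counted by strand is not given in the sources used here. Reads from these partners cannot be told apart from those of the genes. Dll3, Hes1 and Hes6 have no such overlap.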

How the data were processed

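Total RNA of 18 libraries was sequenced as single 36-base reads. The authors mapped them to GRCm38 with TopHat2 2.0.13, counted them per gene with featureCounts 1.4.6, converted the counts to TPM, and kept genes of at least 5 TPM in 3 or more libraries after removing short noncoding genes and the 20% least variable genes. Their own tests were run on the counts. The deposited table holds these TPM values and 3 score columns of the authors on gene variance, which were not used. Of 11046 rows, 81 repeats of a gene were left out, keeping the first.

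Whole reads were recovered from TPM for 100% of values, within 0.0001 reads, with 1 read found added to each gene, and gave the depth, 9622622 to 15617675 reads per library. Group means on log2(TPM + 1) were fitted across all libraries with limma 3.58.1 (R 4.3.3), using empirical Bayes moderation with an intensity trend, and adjusted p-values are Benjamini-Hochberg over 10965 genes. On simulated data it recovered 99.5% of 200 genes changed by 1.5 (log2) for KO minus Ctrl on d6, with 2 false calls among the unchanged genes. For the difference in change from d4 to d6 it recovered 95.0% with 1 false call. The changed genes were drawn above a minimum mean read count, and all genes shared the same dispersion. Recovery at read counts as low as those of Hes5 in KO or Dll1 on d0 was not tested. Other settings were pseudocounts 0.1 and 5, a mean TPM of at least 10, median-ratio and quantile scaling, no trend, a replicate block, only the groups compared, voom on recovered reads, and leaving out each library.

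The members and lists were chosen with earlier results of these data known. All 7 genes are named, and per role at most 4 genes called on d4 or d6 with the largest change, and the 3 genes of highest Pearson r with each member. Single values of 3 genes that this rule names are not reported here. Positions came from GENCODE M21 and promoters from RefSeq, which gave 8 windows for 6 of the 7 genes. Python 3.11.15 with pandas 2.3.3 and matplotlib 3.10.9 was used.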

Additional observations from a re-analysis of the deposited data

Results flagged for a closer look

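The following changes between days passed the threshold for a difference between genotypes (limma, KO minus Ctrl, log2(TPM + 1)). Those of Dll1 and Hes5 are given as a description, because Ctrl libraries alone carried both genes into the table. From d0 to d4 the difference in change was 0.89 for Notch1, 0.83 for Notch3, 1.75 for Hes6 and -2.09 for Dll1. From d4 to d6 it was -1.70 for Hes5 and 0.99 for Hes6. Notch1 and Hes6 started from a lower level in KO on d0, whereas Dll1 had 3 reads in all KO d0 libraries together and 14 in Ctrl. With voom on recovered reads the Dll1 difference in change was -0.61 (adjusted p = 0.738) and that of Hes5 was -2.02 (adjusted p = 0.128), so neither was called on that scale. The Hes5 call was also lost with pseudocount 0.1, with only the groups compared, without KO d4 replicate 2 and without KO d6 replicate 1, and Hes5 entered the table through its Ctrl d6 libraries.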

How the results depend on the processing

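Each result was recomputed under 27 other settings, or 26 for Dll1, Dll3 and Hes5, which a mean TPM of at least 10 removed. With that filter fewer of the 7 genes were tested, and calls numbered 2 on d6, 3 and 2 for the steps of Ctrl, 3 and 1 for the steps of KO, and 1 for the difference in change from d4 to d6. That last count was also 1 with pseudocount 0.1, with voom and with only the groups compared. Calls on d0 numbered 1 with quantile scaling and with only the groups compared, the setting which gave 2801 genes for KO d6 minus d4 instead of 4540. Leaving out a library gave 1 to 2 calls on d0, 2 to 4 for Ctrl d6 minus d4 and 1 to 2 for the difference in change from d4 to d6. Directions turned for uncalled values alone. With quantile scaling KO minus Ctrl was 0.037 for Dll3 and 0.0067 for Hes5 on d0, 0.084 for Notch1 and 0.25 for Dll3 on d4 and 0.0018 for Notch1 on d6, and the Hes5 change from d4 to d6 in KO was -0.032. Dll3 on d4 was 0.077 with median-ratio scaling and 0.073 with voom, and the Hes1 change from d0 to d4 in KO was -0.075 and -0.088. The cause was not tested.

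Without a library in turn, KO minus Ctrl ranged from -0.20 to 0.0024 for Dll3 and from -0.051 to 0.0501 for Hes1 on d4, and from -0.16 to 0.22 for Dll3 on d6. The change from d4 to d6 in KO ranged from -0.13 to 0.018 for Hes1 and from -0.10 to 0.26 for Hes5. The difference in change ranged from -0.058 to 0.26 for Dll3 from d0 to d4, and from d4 to d6 from -0.14 to 0.038 for Notch1, from -0.14 to 0.0032 for Notch3 and from -0.086 to 0.29 for Dll3.

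A replicate block left 2 of the 7 genes called on d0, 3 on d4 and 4 on d6, and changed no call of the 7 genes. Same-numbered libraries deviated together with r from -0.08 to 0.24, above 0.1 in 13 of 21 pairs. Pairing was to be accepted only with every pair above 0.1, so the libraries were not treated as paired, although 17 of 21 were closest to their own number, a hint from the data and not from the design. Genes with few reads, Hes5 in KO and Dll1 on d0, limit what could be resolved.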
